A study of Mus musculus with 8 samples.

Results

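The genes described here are 40 regulators and executors of apoptosis, chosen by name from a list of gene symbols, and all 40 were among the 19583 entries of the expression table. RNA had been sequenced from mouse olfactory bulbs at postnatal day 30, with 4 libraries in each of 2 groups. The double mutant mice carried hGFAP-Cre together with floxed alleles of both Sp8 and Sp9, and the controls were wild-type littermates, all on a mixed background of C57BL/6J, 129S6 and CD1. In hGFAP-Cre mice a human GFAP promoter drives Cre recombinase in radial glia, and the enzyme removes floxed DNA in them and in their descendants, among them the interneurons of the bulb and its astrocytes. The labels name neither the transgene nor floxed alleles in the controls, so effects of Cre, of the alleles and of losing both factors cannot be told apart.

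Apoptosis is programmed cell death that ends in the activation of caspases, proteases that dismantle the cell. In the intrinsic route, BH3-only proteins sense stress and release the effectors BAX and BAK from anti-apoptotic BCL2 proteins, the mitochondrial outer membrane opens, and cytochrome c assembles APAF1 and caspase 9 into the apoptosome. In the extrinsic route, death receptors of the TNF receptor family recruit adaptors and caspase 8. A large share of the interneurons born for the olfactory bulb is normally removed by apoptosis during the weeks after they arrive, and deletion of Bax is known to spare many of them.

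Expression is given in FPKM, a unit scaled to transcript length and to sequencing depth, in which levels of different genes can be set side by side. Library depth, estimated from a second deposited column, lay between 12453488 and 19040796 fragments in the double mutants and between 11888671 and 15992147 in the wild type. The targeted gene Sp8 lay at 6.15 to 8.06 FPKM in the double mutants and 29.34 to 31.57 FPKM in the wild type, and Sp9 at 6.24 to 7.27 against 23.15 to 25.30 FPKM, or 23.8% and 27.9% of their wild-type means. Each library also carries a letter, A (replicates 1 and 2) or B (replicates 3 and 4) in the double mutants. The wild-type letters are C and D, assigned to the same replicate numbers. Libraries of one letter resembled each other more than libraries of different letters within a group, and the labels do not say whether a letter stands for 1 animal. The p-values below therefore measure the spread between libraries, which may be technical in part.

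Cell type markers moved between the groups in the same libraries. All 12 bulb interneuron markers were lower, and their summed level was 672 to 744 FPKM in the double mutants against 1610 to 1640 FPKM in the wild type. Of 10 neuroblast markers 8 were lower and 2 were not called (681 to 777 against 936 to 981 FPKM). All 11 astrocyte markers were higher (1430 to 1480 against 959 to 1060 FPKM), as were 11 of 14 microglia markers (335 to 380 against 247 to 286 FPKM), 10 of 12 endothelial and mural markers (358 to 398 against 205 to 214 FPKM) and all 8 meningeal and fibroblast markers (4120 to 4540 against 2400 to 2770 FPKM). Higher, too, were 7 of 8 mitral and tufted cell markers (1110 to 1180 against 846 to 871 FPKM), 5 of 7 tested olfactory sensory neuron markers (765 to 896 against 382 to 550 FPKM) and 7 of 8 olfactory ensheathing cell markers (3280 to 3530 against 1690 to 1840 FPKM). The 10 dividing cell markers summed to 19.8 to 21.8 against 2.7 to 3.8 FPKM. Of these, 7 had wild-type means under the filter on low values described below and could pass it only through the double mutants, so no count of calls is given. Oligodendrocyte markers had 2 higher and 2 lower among 10 (1680 to 2130 against 1620 to 1750 FPKM). No marker of these lists was at 0 in any library. The part that these shifts have in the changes of the apoptosis genes was not tested, and in whole-bulb RNA fewer cells of a type and less RNA per cell cannot be told apart.

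Of the 40 genes, 39 passed the filter, which asks that a gene average 0.5 FPKM or more across libraries. Between the groups 14 were called higher in the double mutant, 11 were called lower and 14 were not called (limma, adjusted p below 0.05 over 14349 genes). These counts are near the background, because 65.3% of all tested genes were called, 28.8% higher and 36.5% lower. The values of both groups did not overlap for 22 of the 39 genes, 13 higher and 9 lower, against 59.1% of all tested genes. The changes were small. Their median size was 0.26 on the log2(FPKM + 0.5) scale, against 0.24 for all tested genes, and the signed medians were 0.05 and -0.04. On that scale, which understates the change of low genes, 4 of the 39 genes (Tnfrsf1a, Casp8, Casp12 and Birc3) were called with a change of at least 1.5-fold, as were 15.8% of the tested genes. In mean FPKM, Cflar and Tradd also passed that size, at 151% of wild type each. Casp12, counted among the 14 higher genes and these 4, passed the filter only through its double mutant level. Under upper quartile scaling 18 of the 39 genes were higher and 7 lower, and the share of higher genes among the calls over all genes went from 44.1% to 57.3%. The summed level of the 40 genes was 476 to 482 FPKM in the double mutants and 475 to 487 FPKM in the wild type.

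**Figure D1:**
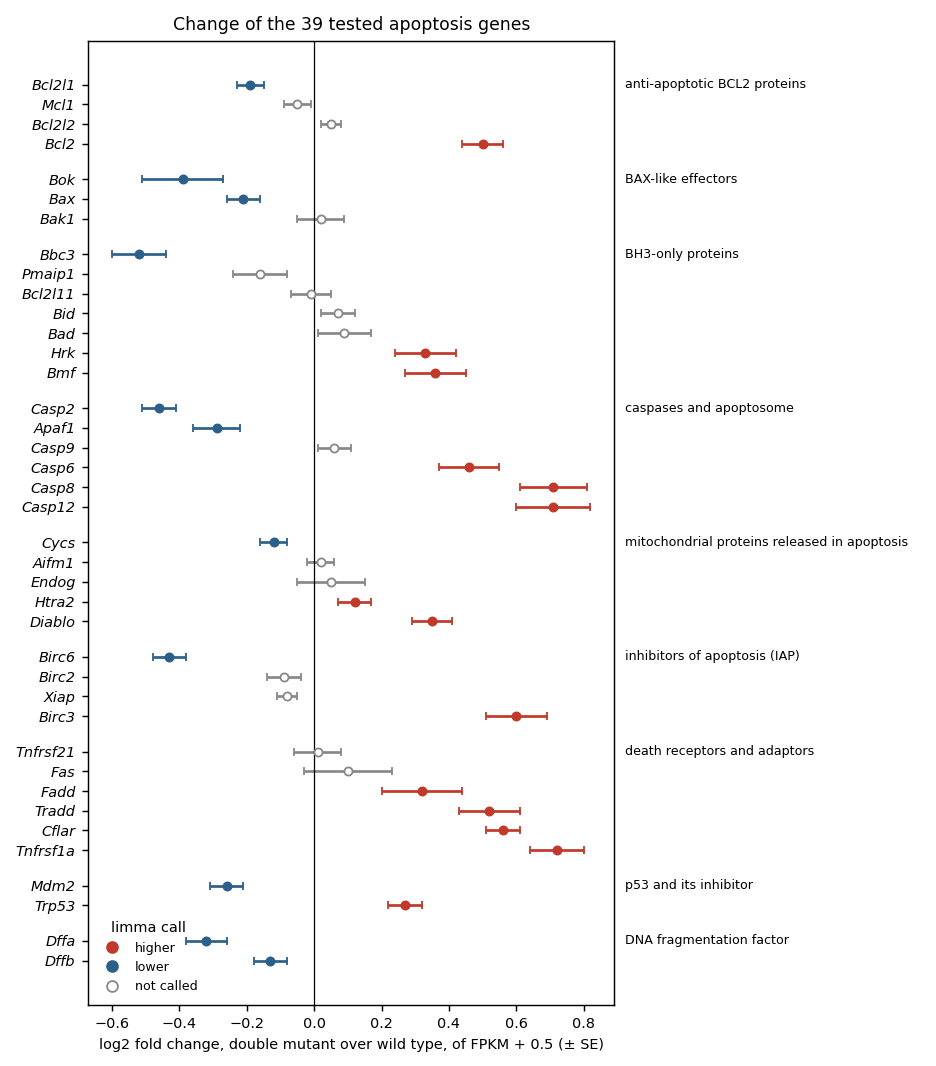
Log2 fold change (double mutant over wild type, FPKM + 0.5) of the 39 tested apoptosis genes, grouped by role, with the standard error of each as a whisker (n = 4 libraries per group). Filled points passed the test, 14 to the right of 0 and 11 to the left, and the roles with members on both sides outnumber those on one side.

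The sequences just before the start sites of the most changed genes were compared for the GC box, because Sp family proteins are known to bind it. Promoters of Tnfrsf1a and Casp8, among the 3 genes that rose most on the log2 scale, and of Bbc3 and Casp2, the 2 that fell most, are printed for this reason, as the 200 bases upstream of a RefSeq start (GRCm38.p6, plus strand for all 4), with each GC box in capitals. The box was searched as GGGCGG on both strands, so that its complement reads CCGCCC. Overlapping matches were counted separately, and Kruppel-like factors bind much the same letters. For Bbc3, which has 3 RefSeq starts, the one furthest upstream is shown.
Tnfrsf1a, chr6:125349523-125349722: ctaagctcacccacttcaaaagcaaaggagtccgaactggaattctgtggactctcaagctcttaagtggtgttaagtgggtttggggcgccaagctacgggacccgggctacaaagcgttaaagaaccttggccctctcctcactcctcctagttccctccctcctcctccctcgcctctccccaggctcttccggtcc
Casp8, chr1:58802302-58802501: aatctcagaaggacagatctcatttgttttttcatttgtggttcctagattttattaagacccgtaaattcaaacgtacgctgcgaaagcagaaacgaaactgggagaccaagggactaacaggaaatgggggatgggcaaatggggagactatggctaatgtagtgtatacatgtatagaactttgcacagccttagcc
Bbc3, chr7:16309383-16309582: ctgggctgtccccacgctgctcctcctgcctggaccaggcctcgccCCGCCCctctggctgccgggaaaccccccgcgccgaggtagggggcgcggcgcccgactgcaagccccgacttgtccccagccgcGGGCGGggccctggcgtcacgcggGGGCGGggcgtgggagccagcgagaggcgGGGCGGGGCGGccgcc
Casp2, chr6:42264785-42264984: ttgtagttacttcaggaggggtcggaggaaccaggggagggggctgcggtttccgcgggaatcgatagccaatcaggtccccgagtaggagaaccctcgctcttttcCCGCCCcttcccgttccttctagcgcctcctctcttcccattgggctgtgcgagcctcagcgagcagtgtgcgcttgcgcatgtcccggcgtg

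The windows of Tnfrsf1a and Casp8, which rose, hold no GC box, that of Casp2, which fell, holds 1, and the printed window of Bbc3, which fell, holds 5. The other Bbc3 starts have 0 and 7. The windows of Tnfrsf1a, Casp8 and Bbc3 lie downstream of the gene starts in the GENCODE annotation (125349362, 58795374 and 16308393). The bases before those starts were not searched, so the lack of a box holds only for the printed windows. Of the 40 genes 36 had a promoter in the RefSeq table (Tradd, Bik, Htra2 and Pmaip1 had none), with 47 starts. A GC box lay before 27 of these starts (57.4%), close to the 54.1% of 13638 starts of tested genes, while the share over all 32851 starts in the table was 31.0%. At least 1 start with a box was found for 24 of the 36 genes (66.7%), against 61.3% of 10615 tested genes. By call these were 4 of 12 genes that were higher, 9 of 11 that were lower and 11 of 13 that were not called. Of the 14349 tested genes 10615 had an entry. The groups of members by call are small, and shares by call were not computed over all tested genes. These shares are therefore a description, and no difference between them was tested. A match to these letters is a description and not a binding site.

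Among the anti-apoptotic BCL2 proteins, which hold BAX and BAK in check at the mitochondrion, Bcl2 rose and the more abundant Bcl2l1 fell. Bcl2 (chromosome 1, 106538178 to 106714274, minus strand), the founding member of the family, measured, in replicates 1 to 4, 7.67, 6.69, 6.82 and 7.08 FPKM (double mutant) against 4.97, 5.09, 4.60 and 4.69 FPKM (wild type). Every double mutant library was above every wild-type library, and the log2 fold change was 0.50 ± 0.06 (SE, n = 4 per group, limma adjusted p = 2.21e-05). Bcl2l1 (chromosome 2, 152780668 to 152831728, minus strand) encodes BCL-XL, the main survival protein of mature neurons. It measured 31.33, 33.21, 30.85 and 34.41 (double mutant) against 36.80, 37.30, 37.22 and 37.22 FPKM (wild type), again with no overlap. This is a fall to 87.4% of wild type (log2 fold change -0.19 ± 0.04, limma adjusted p = 0.00115), and it was -0.10 with quantile normalization and -0.11 with upper quartile scaling, still past the threshold. Bcl2l2, encoding BCL-W, had the highest level of the 40 genes and was not called. Its values were 50.09, 48.76, 51.00 and 50.59 (double mutant) against 47.38, 49.88, 47.25 and 48.79 FPKM (wild type), with a difference of 0.05 ± 0.03 (limma adjusted p = 0.154). The groups overlap, and a call appeared under all 3 other scalings and in the scaled columns, with adjusted p from 0.000881 to 0.451 over its 23 alternatives. Mcl1, whose protein turns over rapidly, measured 34.7 ± 0.2 and 36.1 ± 1.9 FPKM (SD, n = 4) and was not called. Its difference was -0.05, or -0.12 and called without letter C, and its sign turned under upper quartile scaling, quantile normalization and without letter D. Summed over these 4 genes the level was 123 to 127 FPKM in the double mutants and 123 to 129 FPKM in the wild type.

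**Figure D2:**
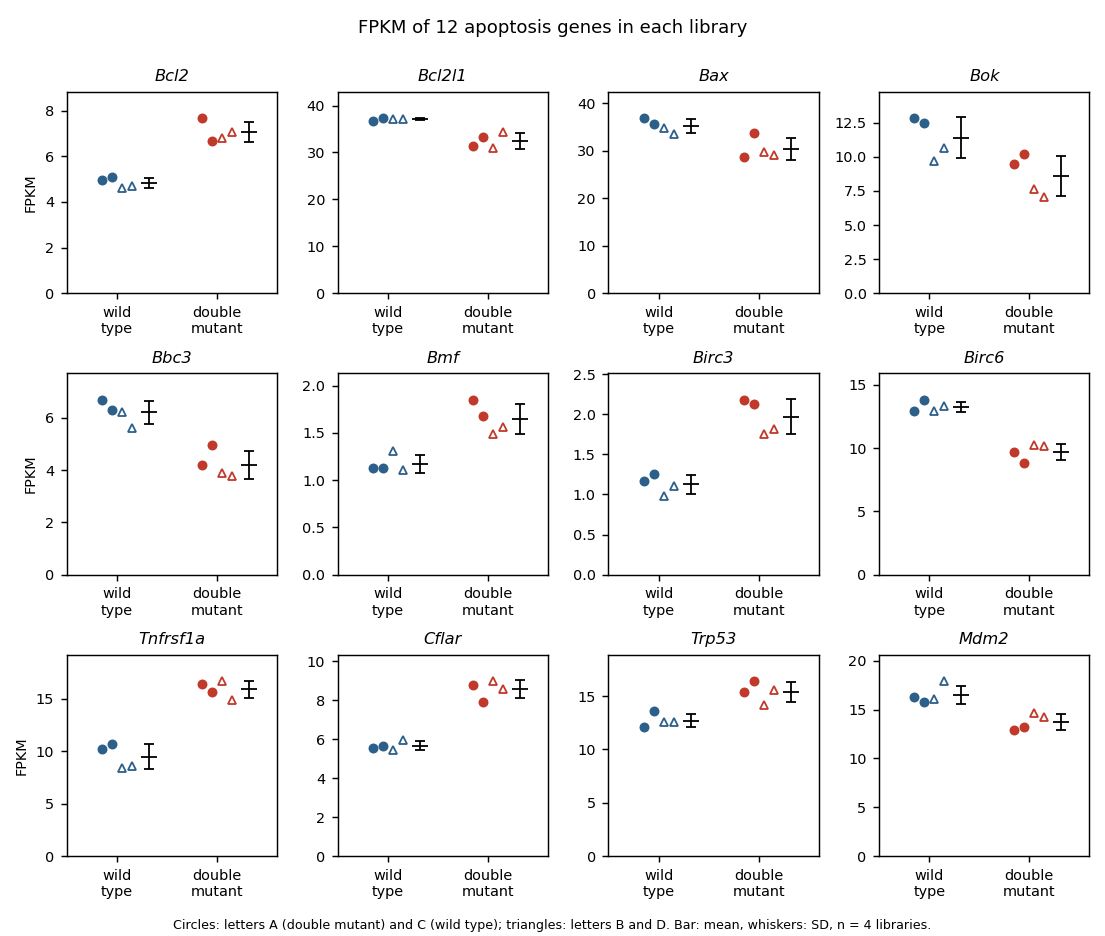
FPKM of 12 apoptosis genes in each of the 8 libraries, on axes that start at 0, with circles for letters A and C, triangles for letters B and D, and the mean ± SD of 4 libraries beside each group. Bcl2, Bmf, Birc3, Tnfrsf1a, Cflar and Trp53 lie higher in all double mutant libraries, Bcl2l1, Bbc3, Birc6 and Mdm2 lie lower, and the groups of Bax and Bok overlap.

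The effectors that open the mitochondrial membrane did not rise. Bax and Bok were called lower and Bak1 was not called. Bok (chromosome 1, 93685660 to 93695764, plus strand), a relative of BAX found at the endoplasmic reticulum, measured 9.44, 10.20, 7.62 and 7.08 (double mutant) against 12.82, 12.46, 9.68 and 10.61 FPKM (wild type). The groups overlap, and within the double mutants letter A exceeded letter B by 0.39 on the log2 scale, as much as the change between groups (-0.39 ± 0.12, limma adjusted p = 0.0136). The change was -0.59 without letter A, and the call was lost without letter B (-0.20), without letter C (-0.24), on the means of the letters and under upper quartile scaling, with adjusted p from 0.000646 to 0.153 over 23 alternatives. Bax averaged 30.3 ± 2.3 and 35.1 ± 1.5 FPKM (SD, n = 4), with replicate 2 of the double mutants inside the wild-type range. It fell by 0.21 on the log2 scale (limma adjusted p = 0.00464), and the call was lost without letter C, with quantile normalization and with upper quartile scaling (-0.13 under both, adjusted p from 0.00033 to 0.0757 over 23 alternatives). Bak1, the partner of BAX, had 9.84, 9.83, 9.60 and 11.81 (double mutant) against 10.21, 10.20, 9.49 and 10.54 FPKM (wild type), with 1 high double mutant library. Exons of Bak1 overlap exons of Ggnbp1 on the other strand by 614 bases, and with no stated strand setting the reads there cannot be assigned.

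BH3-only genes went both ways. Bbc3 (chromosome 7, 16308393 to 16318205, plus strand) encodes PUMA, a target of p53 that binds all anti-apoptotic BCL2 proteins, and it had the largest fall of the 40 genes. It measured 4.19, 4.96, 3.88 and 3.78 (double mutant) against 6.69, 6.30, 6.22 and 5.62 FPKM (wild type), with no overlap. The log2 fold change was -0.52 ± 0.08 (limma adjusted p = 0.000284), a mean of 67.7% of wild type. Bmf, encoding a sensor tied to the cytoskeleton, rose from low values. Its 8 values were 1.85, 1.68, 1.49 and 1.56 (double mutant) against 1.13, 1.13, 1.31 and 1.11 FPKM (wild type) (log2 fold change 0.36 ± 0.09, limma adjusted p = 0.00372). The groups do not overlap, the estimated fragments per library were 75 to 182, and the call was lost under quantile normalization (0.18, adjusted p from 0.000369 to 0.0845 over 22 alternatives). Hrk, a BH3-only gene of neurons, rose by 0.33 ± 0.09 (4.43 to 5.71 against 3.48 to 4.35 FPKM, no overlap). Letter B was the higher one for Hrk, and without it the change was 0.20 and not called (adjusted p from 0.000617 to 0.088 over 23 alternatives).

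The remaining BH3-only genes were not called. Bad, whose protein is held inactive by growth factor signalling, measured 10.63, 12.32, 11.15 and 11.32 (double mutant) against 11.40, 10.27, 9.13 and 11.89 FPKM (wild type), and 3 of the 4 double mutant values lie inside the wild-type range. Bid, which links caspase 8 to mitochondria, had 9.75 to 10.68 and 9.23 to 10.03 FPKM, Bcl2l11 (BIM) had 3.79 ± 0.11 and 3.84 ± 0.25 FPKM, and Pmaip1 (NOXA) had 1.27 ± 0.07 and 1.47 ± 0.14 FPKM (SD, n = 4). Bid was called higher under upper quartile scaling and quantile normalization, and Pmaip1 lower under quantile normalization. Exons of Bad overlap those of Gpr137 by 524 bases, and exons of Bid overlap those of Bcl2l13, another BCL2 family gene, by 628 bases, on the opposite strand in both cases. Bik was below the filter, at 0.07 to 0.28 FPKM in the double mutants and 0.13 to 0.56 FPKM in the wild type, or 1 to 6 estimated fragments per library, too few for a comparison.

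The caspases went both ways. Casp8, Casp12 and Casp6 rose, Casp2 and the apoptosome scaffold gene Apaf1 fell, and Casp9 was not called. Casp8 (chromosome 1, 58795374 to 58847503, plus strand), the initiator of the death receptor route and a brake on necroptosis, measured 1.85, 2.43, 2.42 and 2.25 (double mutant) against 1.26, 1.09, 1.28 and 1.04 FPKM (wild type). The lowest double mutant library was above the highest wild-type library, and the log2 fold change was 0.71 ± 0.10 (limma adjusted p = 7.48e-05), a mean of 192% of wild type. Each library had an estimated 45 to 164 fragments of Casp8. Casp12, a caspase of the endoplasmic reticulum close to the inflammatory caspases, averaged 0.913 ± 0.053 and 0.366 ± 0.085 FPKM (SD, n = 4) and rose by 0.71 ± 0.11. Its wild-type mean is under the filter, so it was tested only because of its double mutant level, and with 12 to 63 fragments per library its change was 1.14 at a pseudocount of 0.1. Casp6, a caspase also known for its part in axon degeneration, rose by 0.46 ± 0.09 (4.21 ± 0.36 against 2.92 ± 0.40 FPKM, SD), with 1 wild-type library, replicate 4 at 3.52 FPKM, close to the lowest double mutant library at 3.68 FPKM.

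Casp2 (chromosome 6, 42264985 to 42282508, plus strand), an initiator caspase activated through the PIDDosome, went the other way. It measured 6.97, 7.32, 7.25 and 7.90 (double mutant) against 9.92, 10.59, 10.31 and 10.31 FPKM (wild type). The groups lie well apart, and the log2 fold change was -0.46 ± 0.05 (limma adjusted p = 1.16e-05). Apaf1 fell by 0.29 (2.51 ± 0.21 against 3.17 ± 0.20 FPKM, SD) without overlap, and the call was lost without letter A or letter C (-0.22 in both cases, adjusted p from 0.000757 to 0.0633 over 23 alternatives). Casp9, the initiator that APAF1 activates, had 9.67, 10.15, 9.55 and 9.26 (double mutant) against 9.47, 9.55, 9.58 and 8.45 FPKM (wild type). Its groups overlap, with a difference of 0.06 ± 0.05 that was called only under upper quartile scaling among 23 alternatives (adjusted p from 0.0468 to 0.777). The summed level of the 5 caspases and Apaf1 was 26.1 to 27.5 FPKM in the double mutants and 26.7 to 27.7 FPKM in the wild type.

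A caspase outside the list of 40, described after its values had been seen, changed more than any of the 40 genes. Casp1, the inflammasome caspase, which microglia and other myeloid cells express, rose from 7.48 ± 0.62 to 19.2 ± 1.1 FPKM (log2 fold change 1.31 ± 0.06). Summed microglia markers stood at 335 to 380 FPKM against 247 to 286 FPKM in the same libraries, and their part in the rise of Casp1 was not tested.

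**Figure D3:**
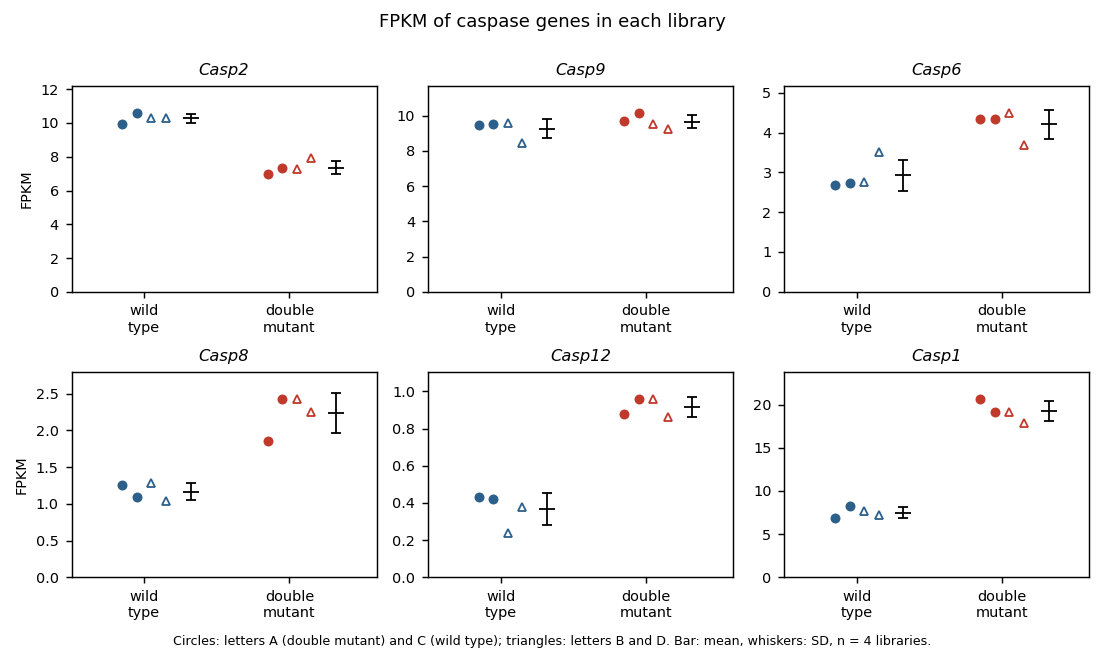
FPKM of 6 caspase genes in each library, on axes that start at 0, with circles for letters A and C, triangles for letters B and D, and the mean ± SD of 4 libraries. Casp2 lies lower in all double mutant libraries, Casp6, Casp8, Casp12 and Casp1 lie higher, and the groups of Casp9 overlap.

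Proteins that leave the mitochondrion in apoptosis showed modest changes. Diablo (chromosome 5, 123509765 to 123524176, minus strand), whose product SMAC relieves the block that IAP proteins place on caspases, was highest in letter A. It measured 21.88, 19.81, 17.51 and 18.92 (double mutant) against 14.83, 15.66, 14.88 and 15.43 FPKM (wild type). All double mutant values were higher (log2 fold change 0.35 ± 0.06, limma adjusted p = 0.00048). Its exons overlap those of B3gnt4 on the opposite strand by 1326 bases, and B3gnt4 itself was higher, at a mean of 1.28 against 0.627 FPKM. Cycs, the gene of somatic cytochrome c in the respiratory chain and the apoptosome, had 35.03, 35.43, 38.29 and 36.45 (double mutant) against 39.78, 38.25, 40.14 and 39.95 FPKM (wild type). The groups touch at 1 library, and the change of -0.12 ± 0.04 (limma adjusted p = 0.0115) lost its call under upper quartile scaling (-0.04), quantile normalization (-0.03), on the means of the letters and without letter A or D (adjusted p from 0.00364 to 0.459 over 23 alternatives). Htra2, a protease that binds IAP proteins, was called at 0.12 ± 0.05 (limma adjusted p = 0.0409), but it lost the call in 13 of 23 alternatives, and its exons overlap those of Aup1 and Loxl3.

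The genes of caspase-independent DNA damage from mitochondria were not called. Aifm1, a flavoprotein that moves to the nucleus, measured 14.69, 13.83, 14.38 and 14.81 (double mutant) against 14.24, 13.76, 14.52 and 14.53 FPKM (wild type), and the ranges nearly coincide (difference 0.02 ± 0.04, called higher at 0.10 under upper quartile scaling). The nuclease gene Endog averaged 10.6 ± 1.5 and 10.1 ± 1.1 FPKM (SD, n = 4), with a spread inside each group wider than the difference between them.

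Among the IAP proteins, which bind caspases or mark them for breakdown, Birc3 rose and Birc6 fell. Birc3 (chromosome 9, 7848699 to 7873186, minus strand) encodes cIAP2, a ubiquitin ligase of TNF receptor complexes and a known target of NF-kB. It measured 2.18, 2.13, 1.75 and 1.81 (double mutant) against 1.17, 1.26, 0.98 and 1.10 FPKM (wild type). No values overlap, and the log2 fold change was 0.60 ± 0.09 (limma adjusted p = 0.000224), with 42 to 122 estimated fragments per library. Birc6 (chromosome 17, 74528295 to 74703356, plus strand), a very large IAP with its own ubiquitin-conjugating domain, measured 9.72, 8.80, 10.20 and 10.12 (double mutant) against 12.91, 13.81, 12.93 and 13.30 FPKM (wild type). Its fall to 73.3% of wild type (log2 fold change -0.43 ± 0.05, limma adjusted p = 3.44e-05) rests on 2728 to 4494 fragments per library. Xiap, the most abundant of the 4 and a direct inhibitor of caspases, had 24.33, 22.86, 24.88 and 24.38 (double mutant) against 25.70, 25.48, 25.20 and 25.63 FPKM (wild type). Although these values do not overlap, the difference of -0.08 ± 0.03 missed the threshold (limma adjusted p = 0.0612), it was called without letter B or without double mutant replicate 3, and its sign turned under upper quartile scaling and quantile normalization. Birc2, the neighbour of Birc3 on the chromosome and its close relative in sequence, averaged 11.7 ± 0.4 and 12.5 ± 0.8 FPKM and was not called. The summed level of the 4 genes was 46.0 to 48.4 FPKM in the double mutants and 51.2 to 53.7 FPKM in the wild type.

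In the death receptor group 4 of 6 genes were called, all higher, beside 28.8% higher and 36.5% lower over all tested genes. These were Tnfrsf1a, Cflar, Tradd and, with overlapping groups, Fadd, while Fas and Tnfrsf21 were not called. No difference from that background was tested. Tnfrsf1a (chromosome 6, 125349362 to 125362484, plus strand), the main receptor of TNF, had the largest change on the log2(FPKM + 0.5) scale. In mean FPKM, Casp12, Casp8 and Birc3 rose more, to 249%, 192% and 174% of wild type, against 168% for Tnfrsf1a. Tnfrsf1a measured 16.43, 15.65, 16.69 and 14.87 (double mutant) against 10.21, 10.75, 8.37 and 8.57 FPKM (wild type). The lowest double mutant library exceeded the highest wild-type library (log2 fold change 0.72 ± 0.08, limma adjusted p = 1.52e-05). Cflar, encoding FLIP, the inhibitor of caspase 8 at the receptor, rose by 0.56 ± 0.05 (limma adjusted p = 5.62e-06), from 5.66 ± 0.23 to 8.56 ± 0.46 FPKM (SD, n = 4). Tradd, the adaptor that binds the TNF receptor, rose by 0.52 ± 0.09, from 2.77 ± 0.40 to 4.18 ± 0.29 FPKM. Both the receptor and the inhibitor of its death signal were thus higher in all 4 double mutant libraries.

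Fadd, the adaptor that brings caspase 8 to death receptors, was called at 0.32 ± 0.12 (limma adjusted p = 0.0315), with double mutant replicate 2 highest at 2.26 FPKM and overlapping groups. The call for Fadd was lost in 9 of 22 alternatives, among them those without letter A or without letter C (0.21 in both), without double mutant replicate 2, and without wild-type replicate 1 or 2. Over all 22 the limma adjusted p ran from 0.00895 to 0.256. Fas, the receptor of FAS ligand, averaged 1.21 ± 0.17 and 1.11 ± 0.25 FPKM (SD, n = 4) on 19 to 43 fragments per library. Tnfrsf21, death receptor 6, known for a part in axon pruning, had 13.93, 15.76, 12.46 and 12.48 (double mutant) against 14.18, 13.52, 12.92 and 13.23 FPKM (wild type). Letter A of the double mutants lay above letter B for Tnfrsf21, and all 4 wild-type values lay inside the double mutant range. The summed level of the 6 genes was 42.6 to 46.8 FPKM in the double mutants and 32.0 to 35.4 FPKM in the wild type, and Tnfrsf1a made up most of that difference.

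Trp53 and Mdm2 moved in opposite directions. Trp53 (chromosome 11, 69580359 to 69591873, plus strand), the gene of the p53 transcription factor, measured 15.41, 16.39, 14.16 and 15.53 (double mutant) against 12.08, 13.58, 12.58 and 12.54 FPKM (wild type). It rose by 0.27 ± 0.05 (limma adjusted p = 0.00113) without overlap. Mdm2 (chromosome 10, 117688875 to 117710758, minus strand), the ubiquitin ligase that degrades p53 and is itself a p53 target, measured 12.89, 13.21, 14.63 and 14.26 (double mutant) against 16.26, 15.78, 16.10 and 17.90 FPKM (wild type). It fell by 0.26 on the log2 scale (SE 0.05, limma adjusted p = 0.00174), again without overlap, and by 0.17 under upper quartile scaling. Messenger RNA levels do not show p53 protein, which is regulated mainly by its breakdown.

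Both subunits of the DNA fragmentation factor were called lower. Dffa, the inhibitor that caspases cleave to free the nuclease, measured 15.43, 17.00, 19.10 and 17.25 (double mutant) against 21.53, 20.71, 21.82 and 21.92 FPKM (wild type). Every double mutant value was below every wild-type value (log2 fold change -0.32 ± 0.06, limma adjusted p = 0.000607). Dffb, the nuclease itself, averaged 4.84 ± 0.19 and 5.34 ± 0.16 FPKM (SD, n = 4) and was called at -0.13 ± 0.05 (limma adjusted p = 0.0415). It lost the call in 17 of 23 alternatives, and over all 23 the limma adjusted p ran from 0.0247 to 0.406. For each member without overlap an exact two-sided permutation test gave p = 0.0286, the smallest value that 4 against 4 libraries allow. Any gene without overlap gets this value, so it adds nothing to the lack of overlap. The test also treats all 8 libraries as separate units, although libraries of one letter resembled each other.

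Across processing alternatives, 16 of the 25 called genes passed the threshold in every one in which they were tested, 10 of them higher (Bcl2, Casp6, Casp8, Casp12, Diablo, Birc3, Tnfrsf1a, Tradd, Cflar and Trp53) and 6 lower (Bcl2l1, Bbc3, Casp2, Birc6, Mdm2 and Dffa). Casp12 is among the 10 although it passed the filter only through its double mutant level, and the filter at 2 FPKM did not test it. The other 9 called genes lost the call in at least 1 alternative, and no called gene changed sign. How many of all called genes kept their call in every alternative was not computed. The 16 genes therefore cannot be set against a background. Most alternatives reuse the same libraries and are not independent of each other.

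**Figure D4:**
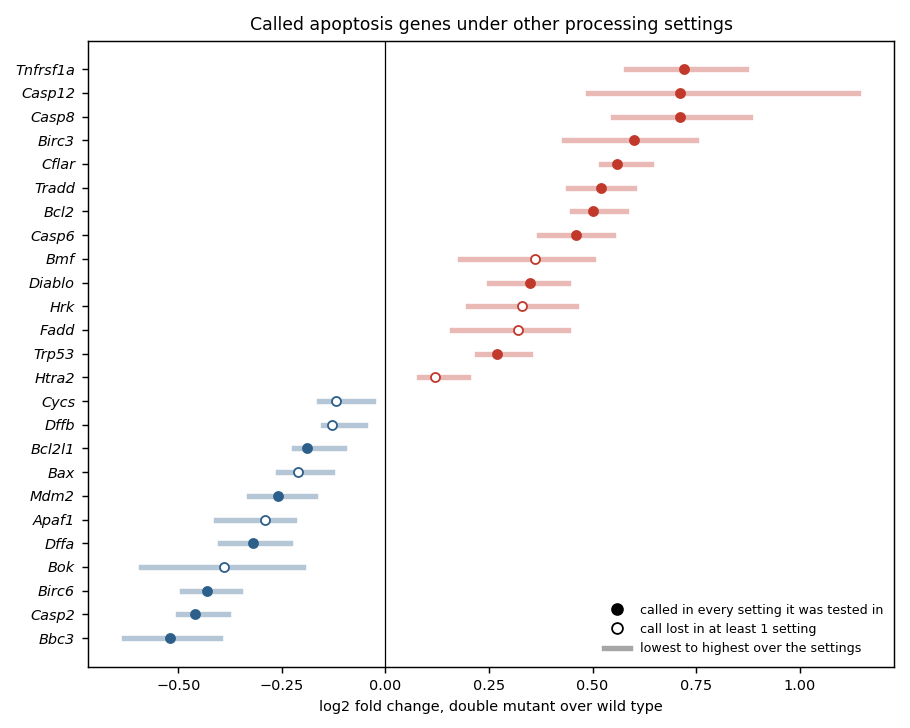
Log2 fold change (double mutant over wild type) of the 25 called apoptosis genes as reported (points), with bars from the lowest to the highest value over up to 23 processing alternatives. Filled points mark the 16 genes called in every alternative in which they were tested, no bar crosses 0, and the bar of Casp12 is the widest, from 0.49 to 1.14.

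Other genes of the pathway, from 3 lists that share a few genes, were mixed in direction too. Of 52 genes that were found, 35 passed the filter, of which 18 were higher, 10 lower and 7 not called, with a median of 0.17. The 18 include Birc5, which passed the filter only through its double mutant level. Over all tested genes 28.8% were higher and 36.5% lower, with a median of -0.04. No difference from that background was tested. These lists were not recounted under other scalings, and upper quartile scaling moved the share of higher genes among all calls from 44.1% to 57.3%. In the list of other BCL2 family, caspase and IAP genes 5 of 12 tested were higher and 3 lower. Birc5, encoding survivin, an IAP family protein that acts in cell division, had the largest rise, from 0.383 ± 0.26 to 1.83 ± 0.19 FPKM (SD, n = 4, log2 fold change 1.44 ± 0.18). Its wild-type mean is under the filter, so it was tested only through its double mutant level. The summed dividing cell markers stood at 19.8 to 21.8 against 2.7 to 3.8 FPKM in the same libraries. Whether these move for the same reason was not tested. In the list of other death receptor pathway genes 7 of 11 tested were higher and 3 lower. Ngfr, the p75 neurotrophin receptor, which olfactory ensheathing cells express, rose from 0.83 to 1.22 FPKM in the wild type to 2.70 to 3.36 FPKM in the double mutants (log2 fold change 1.19 ± 0.11), and the neuronal inhibitor of FAS signalling Faim2 fell from 71.9 ± 5.7 to 58.3 ± 4.9 FPKM (-0.30 ± 0.07).

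Of 12 tested p53 target genes 6 were higher and 4 lower, with a median of 0.14, beside 28.8% higher and 36.5% lower over all tested genes. Perp, a membrane protein gene, rose from 4.57 ± 0.22 to 7.47 ± 0.49 FPKM (SD, n = 4, log2 fold change 0.65 ± 0.06, limma adjusted p = 3.46e-06). Cdkn1a, the cell cycle inhibitor p21 and the best known p53 target, fell the most of these lists. Its values were 14.27, 12.89, 15.30 and 14.62 (double mutant) against 44.15, 47.05, 56.73 and 54.92 FPKM (wild type), and the highest double mutant library lay far below the lowest wild-type library (log2 fold change -1.79 ± 0.08, limma adjusted p = 2.9e-08). Beside the higher Trp53, known p53 targets thus went both ways. Cdkn1a, Bbc3 and Mdm2 fell, while Perp, Ccng1 (0.39 ± 0.07) and Sesn2 (0.33 ± 0.07) rose, the last pair being named after their values were seen. The other called genes of the p53 list were Plk2, Btg2 and Ei24, which fell, and Phlda3, Aen and Trp53inp1, which rose.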

How the data were processed

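Whole olfactory bulb RNA of 4 double mutant and 4 wild-type libraries was analysed from a table with 2 columns per library. Per the file headers, 1 deposited column holds FPKM. The other deposited column is a scaled count, treated as a signal. Of its values above 0, 98.2% to 98.4% were whole multiples of a fixed step (0.7363 to 1.2465) within a tolerance of 0.02. Depth in fragments was estimated from that step. The submitters' processing notes list GRCm38.p4 as the build, with Cufflinks 2.1.1 and TopHat as tools. Which annotation, strand setting and filters they used is not given in the sources used here.

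Genes averaging 0.5 FPKM or more were kept, and log2(FPKM + 0.5) was tested with limma 3.58.1 (R 4.3.3, trend, Benjamini-Hochberg over all 14349 genes, threshold 0.05). A fold change on this scale understates that of low genes. Exact two-sided permutation tests used all 70 assignments of libraries. On simulated data with independent noise in each library, 100 genes were changed by 0.5 and 100 by 1. The fit recovered 88% and 99% of them, and 3.11% of its calls were false. In the real data 65.3% of genes were called and libraries of a letter resembled each other, so these rates may not hold there. Gene coordinates come from GENCODE M21 (GRCm38) and promoters from RefSeq (GRCm38.p6). Alternatives changed the pseudocount, filter, scaling, values used, blocks and libraries. In each role, 8 values are printed for the called genes with the largest rise and fall and for the most abundant gene not called, and of each pathway list the largest called rise and fall are named, except where a result is not reported here. The 40 genes and all lists were chosen with earlier results of these data known. Replicate numbers did not pair libraries (correlations of deviations -0.05 to 0.01).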

Additional observations from a re-analysis of the deposited data

Results flagged for a closer look

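In 5 of 80 groups of 4 libraries, 1 library stood apart from the other 3 by more than Dixon's limit for 4 values, and chance alone gives about 4. These were Bcl2l1 in wild-type replicate 1 (36.8 FPKM, below the others), Bak1 in double mutant replicate 4 (11.81 FPKM, above), Bmf in wild-type replicate 3 (1.31 FPKM, above), Casp6 in wild-type replicate 4 (3.52 FPKM, above) and Casp9 in wild-type replicate 4 (8.45 FPKM, below). Without that library each of these 5 genes stayed on the same side of the threshold in limma. The change of Bak1, not called, went from 0.02 to -0.05.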

How the results depend on the processing

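Over 23 alternatives, 890 log2 changes of these genes were recomputed. Of these, 800 kept their direction and side of the threshold, 55 lost the call, 12 gained it and 23 changed sign, none of them for a called gene. The cause of the changes was not tested, except that 5 called genes were not tested with a filter at 2 FPKM, which left 9 called higher. With upper quartile scaling, which moved the median of all genes by 0.08, 7 were called lower. Leaving out 1 library at a time gave 12 to 14 higher and 10 to 11 lower, with 8748 to 9030 genes called in all. With the replicate number as a block, 12 were higher and 10 lower, Htra2, Fadd and Dffb lost the call, and 4045 genes in all were higher and 5144 lower. The numbers do not pair the libraries.

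The sign changed under upper quartile scaling for Mcl1 (0.03), Bcl2l11 (0.06) and Xiap (0.005), under trimmed mean scaling for Bcl2l11 (0.02), and under quantile normalization for Mcl1 (0.03), Xiap (0.02) and Fas (-0.08). It changed without letter A for Tnfrsf21 (-0.11), without letter B for Bak1 (-0.04), Bcl2l11 (0.01) and Aifm1 (-0.00045), without letter C for Aifm1 (-0.01), and without letter D for Mcl1 (0.01) and Tnfrsf21 (-0.03). Leaving out 1 library at a time gave -0.05 to 0.05 for Bak1, -0.04 to 0.01 for Bcl2l11, -0.00078 to 0.04 for Aifm1, -0.02 to 0.14 for Endog and -0.05 to 0.05 for Tnfrsf21. A count test on whole reads was not run, because a small share of the scaled values were not whole multiples of the step. Precision is limited for genes with few fragments, such as Casp12 (12 to 63) and Fas (19 to 43).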

Other observations

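Some pathway genes too low for the test, named after their values were seen, still had groups that did not overlap, as did 59.1% of the tested genes. The share among genes too low for the test was not computed. Besides the genes given below, Casp4 and Naip2 did not overlap, while others, such as Mlkl and Ripk3, did. Gtse1, a regulator of p53 in dividing cells, was at 0.49 to 0.54 FPKM in the double mutants and 0.07 to 0.20 FPKM in the wild type. Eda2r, a TNF receptor family gene and p53 target, was at 0.16 to 0.44 against 0.04 to 0.10 FPKM, and Naip6, a NAIP family gene with close copies that could share its reads, at 0.15 to 0.17 against 0.05 to 0.09 FPKM. The ligand genes Fasl and Tnf were at or below 0.22 FPKM in every library.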
